A study of Caenorhabditis elegans with 4 samples.

Results

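The sex determination genes xol-1, sex-1, her-1, tra-1, tra-2, tra-3, fem-1, fem-2, fem-3 and fog-2 of Caenorhabditis elegans were set against the MRG-1 peaks of adult hermaphrodites. They were listed by symbol, and all 10 were found among the 19971 protein-coding genes of the gene table. MRG-1, a chromodomain protein related to mammalian MRG15, has known functions in germ cells. It was mapped by chromatin immunoprecipitation and sequencing (ChIP-seq) with an affinity-purified rabbit polyclonal antibody. The animals carried the allele fem-2(b245) on chromosome III and were kept at 20 °C. Their stage is labelled young adult with a germline, although the growth protocol speaks of gravid animals. The groups were 2 MRG-1 ChIP samples and 2 input samples of this same strain, so every sample carried the mutant allele of one of the genes described and no wild-type animals were compared. The b245 allele is known as a temperature-sensitive mutation. Values came from 3 peak lists: replicate 1 with 2769 peaks, replicate 2 with 3895, and a series-wide list with 12147. Only the ChIP samples gave values, so no input values stand beside them. How the input was used in calling the peaks is not given in the sources used here. The lists hold no read counts, and the depth behind a peak is unknown. A single group with 2 lists allows no test between conditions, and the results below are descriptions.

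Sex in C. elegans is set by a chain of mostly negative steps. The number of X chromosomes relative to autosomes is read through xol-1, the early switch that promotes male fate, and sex-1 encodes a nuclear hormone receptor that represses xol-1 in animals with a pair of X chromosomes. Downstream, the secreted protein HER-1 inhibits the membrane receptor TRA-2, and the calpain-like protease TRA-3 acts on TRA-2. The FEM proteins promote male development and sperm production: FEM-1 is an ankyrin repeat protein, FEM-2 a protein phosphatase of the PP2C family, and FEM-3 a protein bound by TRA-2. Together with the cullin CUL-2 they promote breakdown of TRA-1, the GLI-family zinc finger transcription factor at the end of the chain. FOG-2 is an F-box protein that acts with the RNA-binding protein GLD-1 on tra-2 messenger RNA and lets hermaphrodites make sperm.

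MRG-1 peaks lay over 6 of the 10 genes, and the list of 6 was the same in all 3 peak lists: fem-1, fem-2, fem-3, tra-1, tra-2 and fog-2. No list had a peak over xol-1, sex-1, her-1 or tra-3. Among all protein-coding genes, 24.4% shared at least 1 bp with a peak in both replicates. By list the figure was 30.2% for replicate 1, 28.1% for replicate 2 and 32.7% for the series-wide list, and 64.5% of genes had no peak in any of the 3. At least 50% of the span was under peaks in both replicates for 5 of the 10 genes, tra-1 being the exception among the 6, and for 17.0% of all protein-coding genes. The 10 spans ran from 1395 bp for fog-2 to 24312 bp for tra-1. Their median was 4458 bp, against 2006 bp for all protein-coding genes. A longer gene can more easily share 1 bp with a peak, but the effect of length was not tested. Over the summed 66.0 kb of the 10 spans, 35.8% of bases were under peaks in replicate 1 and 26.6% in replicate 2, a mean of 31.2% ± 6.52 (SD, n = 2). The same share over all protein-coding spans was 19.7% ± 3.13 (SD, n = 2). With 10 genes chosen by name and no test, these shares describe the genes only. Gene spans were those of the WBcel235 table and peaks those of WormBase WS220, builds taken to differ by about 200 bp at most, so edges and distances carry that uncertainty.

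**Figure D1:**
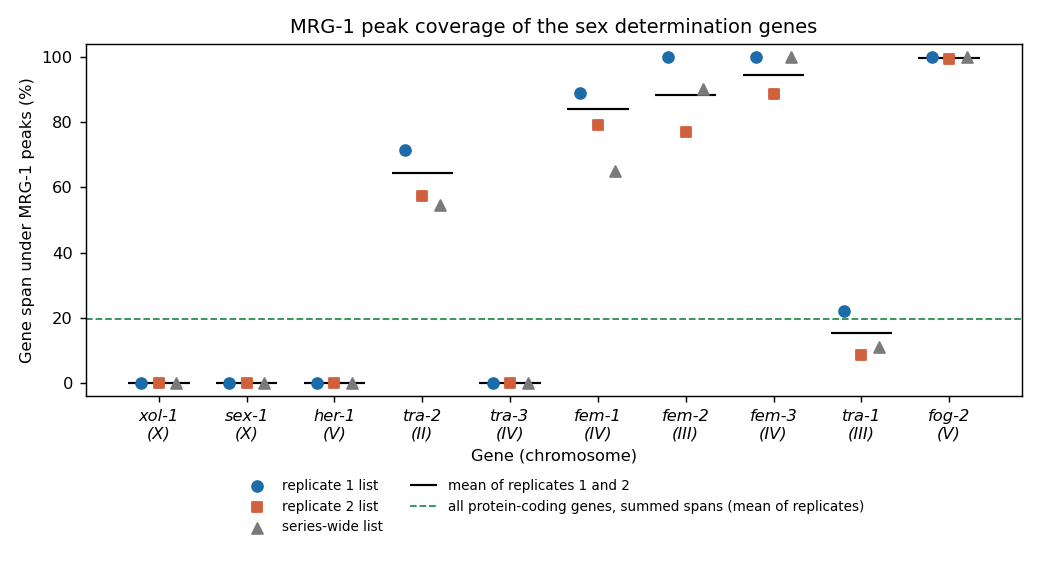
Percent of each gene span under MRG-1 peaks (y axis) for the 10 sex determination genes (x axis, chromosome in brackets) in replicate 1, replicate 2 and the series-wide list. Black bars are the mean of the 2 replicates, and the dashed line is the 19.7% of all protein-coding spans. The 3 fem genes, tra-2 and fog-2 stand above 50% in every list, tra-1 lies between 8.71% and 22.0%, and 4 genes stand at 0.

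By the mean of both replicates the order ran fog-2, fem-3, fem-2, fem-1, tra-2 and tra-1. For fog-2 the covered share was 99.7% ± 0.456, for fem-3 94.4% ± 7.92, for fem-2 88.4% ± 16.3 and for fem-1 84.0% ± 7.01 (SD, n = 2 each). Each of these means differed from the next by no more than the larger of the SDs of that pair. Next came tra-2 at 64.5% ± 10.1 and tra-1 at 15.4% ± 9.40 (SD, n = 2 each). Both replicates of tra-2 lay below both of fem-1, and both of tra-1 lay below both of tra-2. Replicate 2 covered less than replicate 1 in all 6. This was not particular to these genes: over all protein-coding spans the shares were 21.9% in replicate 1 and 17.5% in replicate 2. Of all protein-coding genes, 14.3% had a mean coverage at or above that of fem-2 and 11.1% at or above that of fog-2.

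The mutated gene of the strain, fem-2, lay under a single peak in each replicate. Peaks covered 100% of its 2608 bp span, on the left arm of III, in replicate 1 and 76.9% in replicate 2, with 90.2% under peaks of the series-wide list. The replicate 1 peak ran from 631582 to 638430 (6849 bp) and its score stood at percentile 75.6 of that list. In replicate 2 the peak ran from 632622 to 635365 (2744 bp, score percentile 66.3), so the left end of the gene was outside it. The series-wide list split the region into peaks at 631981 to 632557 and 632814 to 635367, the second at percentile 86.8. All 3 lists covered the right part of the gene and differed over its left end.

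An edge of MRG-1 peaks fell at the left of fem-2. Its 5 nearest protein-coding neighbours to the left had no peak in any list, whereas all 5 to the right had peaks in both replicates, with a median coverage of 74.3%. To the left, the next peak was 32502 bp away in replicate 1 and 36816 bp in replicate 2. The nearest left neighbour, T19C3.6, came close to the replicate 1 peak and would overlap it if gene spans were moved 200 bp to the right. On the right, eakr-4 was covered to 100% and 37.1% in replicates 1 and 2. Further right, sbds-1, the worm homologue of the ribosome maturation factor SBDS, was covered to 100% and 44.1%. The replicate 1 peak over fem-2 touched both of these genes, and the replicate 2 peak touched eakr-4 alone of the pair. On the left 25% of III, 23.5% of protein-coding genes were overlapped in both replicates, against 39.8% on the whole of III.

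For fem-3 the edge was on the other side. Peaks of replicate 1 covered 100% of its 2642 bp span, in the middle of IV, peaks of replicate 2 covered 88.8%, and series-wide peaks 100%. Peaks ran from 9100815 to 9108275 in replicate 1 and from 9104104 to 9107311 in replicate 2, at score percentiles 71.9 and 61.2. One series-wide peak, from 9102204 to 9107813, spanned the whole gene. Immediately to the right, the gene aly-1, of the ALY/REF family of mRNA export factors, had no peak in any list, and neither did nrfl-1 beyond it. The next peak on the right was 37346 bp away in replicate 1 and 38116 bp in replicate 2. On the left, 4 of the 5 neighbours had peaks in both replicates, the exception being gldi-10, covered to 65.2% in replicate 1 and 0 in replicate 2.

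The third fem gene, fem-1, stood at the left edge of a wide domain. Of its 4823 bp span in the middle of IV, 88.9% was under peaks in replicate 1 and 79.0% in replicate 2, and the series-wide list covered 65.1%. In replicate 1 one peak of 21391 bp, from 5533674 to 5555064, took in fem-1 and 4 genes to its right. These were drp-1, a dynamin-related gene of mitochondrial division, tebp-2, which encodes a telomere-binding protein, cec-6, a chromodomain gene, and ari-2. That peak was wider than or as wide as 98.1% of the peaks of its list, while its score stood at percentile 54.0. Replicate 2 had a short peak from 5533622 to 5535311 over the left part of fem-1 and a 12788 bp peak from 5535842 to 5548629 that reached through cec-6. All of drp-1, tebp-2 and cec-6 was under peaks in every list. To the left, unc-5, which encodes a netrin receptor and spans 32675 bp, had no peak in any list, and the next peak lay 41809 bp away in replicate 1 and 41999 bp in replicate 2. In the middle of IV, 29.2% of protein-coding genes were overlapped in both replicates, and on all of IV 27.1%.

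**Figure D2:**
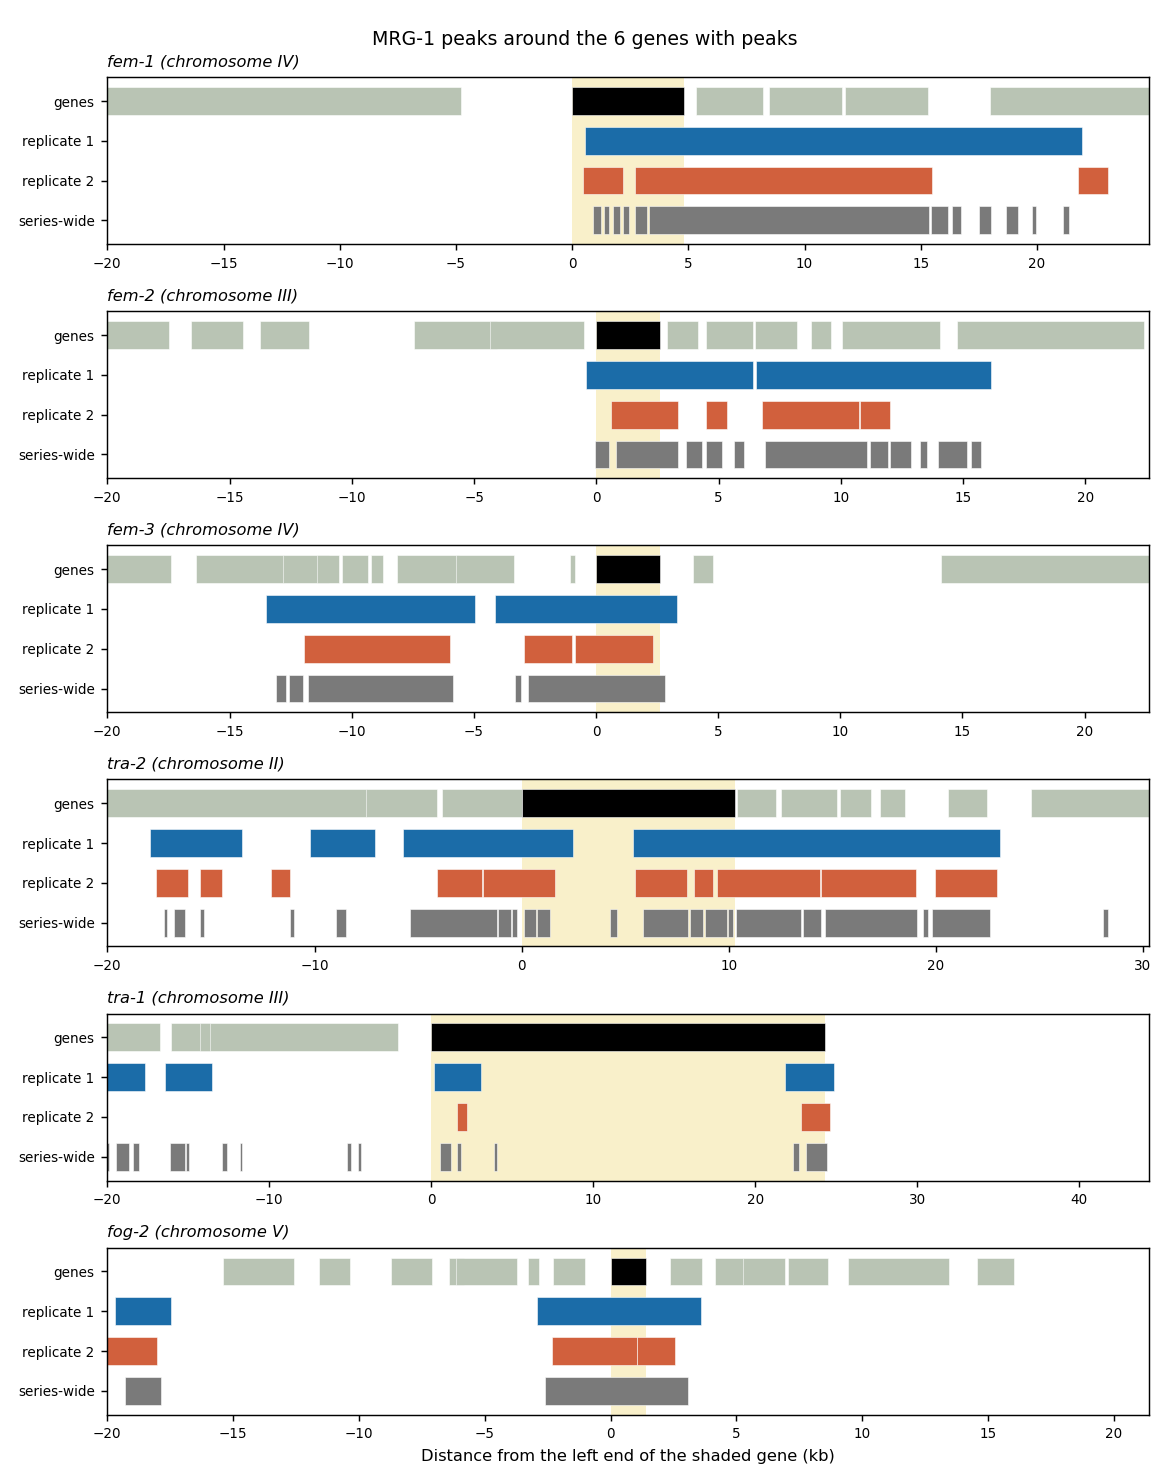
Maps of the 6 genes with MRG-1 peaks, with 20 kb on each side. The x axis is the distance in kb from the left end of the shaded gene, rows are protein-coding genes (the named gene in black) and the peaks of replicate 1, replicate 2 and the series-wide list, and positions of genes against peaks are good to about 200 bp. Peaks run rightwards from fem-1 and fem-2 and leftwards from fem-3, lie near both ends of tra-1, and sit over fog-2 with no other peak nearer than 17483 bp.

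The receptor gene tra-2 had neighbours with peaks on both sides and a stretch inside it with no replicate peak. Its 10290 bp span in the middle of II had 71.6% of its bases under peaks in replicate 1 and 57.4% in replicate 2, and series-wide peaks took in 54.7%. In replicate 1 a peak from 6949650 to 6957840 covered its left end and a 17730 bp peak from 6960760 to 6978489 its right part, leaving 2919 bp free between them. Replicate 2 had 4 peaks over the gene and left 3858 bp free in about the same place, from 6957013 to 6960870. The series-wide list had 7 peaks over it and placed a weak one, at score percentile 1.13, inside that stretch. All 10 of the nearest neighbours were overlapped in both replicates, but malt-1 and B0252.1 lost the overlap in replicate 2 when gene spans were moved 200 bp to the left. On the left, the homeobox gene ceh-38 was covered to 100% and 99.2% in replicates 1 and 2. On the right, eif-2Bgamma, which encodes a subunit of a translation initiation factor, was covered to 100% in each. In the middle of II, 34.7% of protein-coding genes were overlapped in both replicates. Both fem-1 and tra-2 were thus touched by peaks over 10 kb wide in replicate 1, and fem-1 in replicate 2 also.

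At tra-1 the peaks lay near the ends of the gene and left most of its interior free. Of the 24312 bp span, on the right arm of III, 22.0% was under peaks in replicate 1 and 8.71% in replicate 2, and 11.2% under series-wide peaks. Replicate 1 had a peak near each end, from 11171086 to 11173966 and from 11192735 to 11195738, with 18768 bp between them. In replicate 2 these were narrower, from 11172467 to 11173118 and from 11193737 to 11195499, with 20618 bp between them. The series-wide list placed 5 peaks over the gene and left 18276 bp free. The highest-scoring peak was at the right end in each list. Score percentiles at the right and left ends were 48.8 and 21.9 in replicate 1, 53.9 and 4.75 in replicate 2, and at most 88.1 and 64.7 in the series-wide list. To the right of tra-1, the T-box gene tbx-34 and the other 4 of the 5 nearest genes had no peak in any list. To the left, cku-70, which encodes the Ku70 subunit of DNA end joining, had 18.1% of its span under replicate 1 peaks and no replicate 2 peak. Of the 10 neighbours 1 was overlapped in both replicates, on a chromosome arm where 44.6% of protein-coding genes were.

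The peak over fog-2 was isolated. Replicate 1 covered 100% of its 1395 bp span, near the right end of V, replicate 2 covered 99.4% and the series-wide list 100%. One peak from 20196340 to 20202860 spanned the gene in replicate 1, at score percentile 75.8. Replicate 2 split it into 20196939 to 20200303 and 20200313 to 20201811, at percentiles 60.0 and 29.8, and the series-wide peak ran from 20196626 to 20202337. The next peak lay 17483 bp to the left and 35346 bp to the right in replicate 1, and 18030 and 40489 bp in replicate 2. The same peaks covered ftr-1, the close relative of fog-2 on its left, to 100% in both replicates. They covered part of fbxa-114 on the right, at 98.9% in replicate 1 and 15.6% in replicate 2. On the right 25% of V, 7.65% of protein-coding genes were overlapped in both replicates. Since fog-2 and ftr-1 are close relatives, some reads may map to both, but their sequences were not compared here. The handling of such reads is not given in the sources used here. Which of the pair the signal comes from is therefore uncertain.

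**Figure D3:**
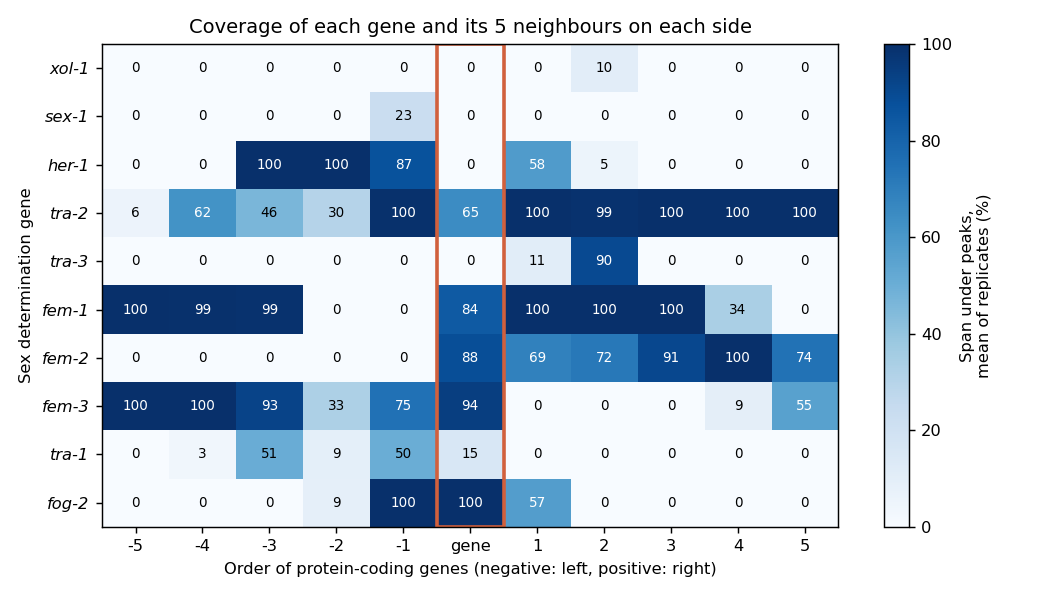
Percent of span under peaks, as the mean of replicates 1 and 2, for each sex determination gene (outlined column) and its 5 nearest protein-coding genes on each side, in order along the chromosome. Rows are the 10 genes, colour runs from 0 to 100%, and the printed number is the mean. All 5 genes left of fem-2 are at 0 and all 5 right of it are covered, while her-1 is at 0 with covered genes on each side.

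The 4 genes without peaks differed in their surroundings. The gene of the male-promoting signal, her-1, lay in a short gap between peaks. It is 5021 bp long, in the middle of V, and its peak-free stretch measured 8565 bp in replicate 1 and 11215 bp in replicate 2, with 9212 bp free of series-wide peaks. In the middle of V, 22.6% of protein-coding genes were overlapped in both replicates, and on all of V 16.1%. Replicate 1 peaks ended 1818 bp to its left and began 1726 bp to its right, and in replicate 2 these distances were 2683 and 3511 bp. The left neighbour ZK287.7 was covered to 100% and 73.7% in replicates 1 and 2, and ztf-9 beyond it to 100% in both. On the right, xbx-6 was covered to 85.2% and 30.6%. Of all protein-coding genes, 116, or 0.581%, had no peak in any list and yet a peak within 5000 bp on each side in both replicates. Among the 10 genes, her-1 alone met this condition, which was set after its values were seen.

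The protease gene tra-3 lay in a long peak-free stretch of IV. No list had a peak over its 7739 bp. The stretch ran from 14116316 to 14463212 in replicate 1 (347 kb) and from 14115906 to 14463453 in replicate 2 (348 kb). It held 45 whole protein-coding genes. The nearest peak was on the right, 19029 bp away in replicate 1 and 19270 bp in replicate 2, and the next gene but one on that side, dld-1 for the mitochondrial dihydrolipoamide dehydrogenase, was covered to 100% and 80.3%. On the right 25% of IV, 21.7% of protein-coding genes were overlapped in both replicates.

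The X-linked genes xol-1 and sex-1 had no peak, like most genes of that chromosome. Of the 2730 protein-coding genes on X, 1.14% were overlapped in both replicates (0.761% in the middle of X, where both genes lie) and 90.2% had no peak in any list, so having no peak is the usual state of a gene there. The replicates differed on X, with 235 genes overlapped in replicate 1, 34 in replicate 2 and 31 in both. The share overlapped in both thus rests mostly on replicate 2. Over all chromosomes the counts were 6030 and 5607 genes in replicates 1 and 2. Around xol-1, replicate 1 had no peak from 7825653 to 8056616, 231 kb that held 30 whole protein-coding genes. Its nearest peak, 12207 bp to the right in replicate 1, lay over dim-1, a muscle gene covered to 20.4% there. A replicate 1 peak also lay 2395 bp to the left of sex-1, over nucb-1, for a nucleobindin, which was covered to 46.0%. Replicate 2 had neither peak: in that list both genes lay in one peak-free stretch of 2744 kb, from 7825182 to 10569363.

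**Figure D4:**
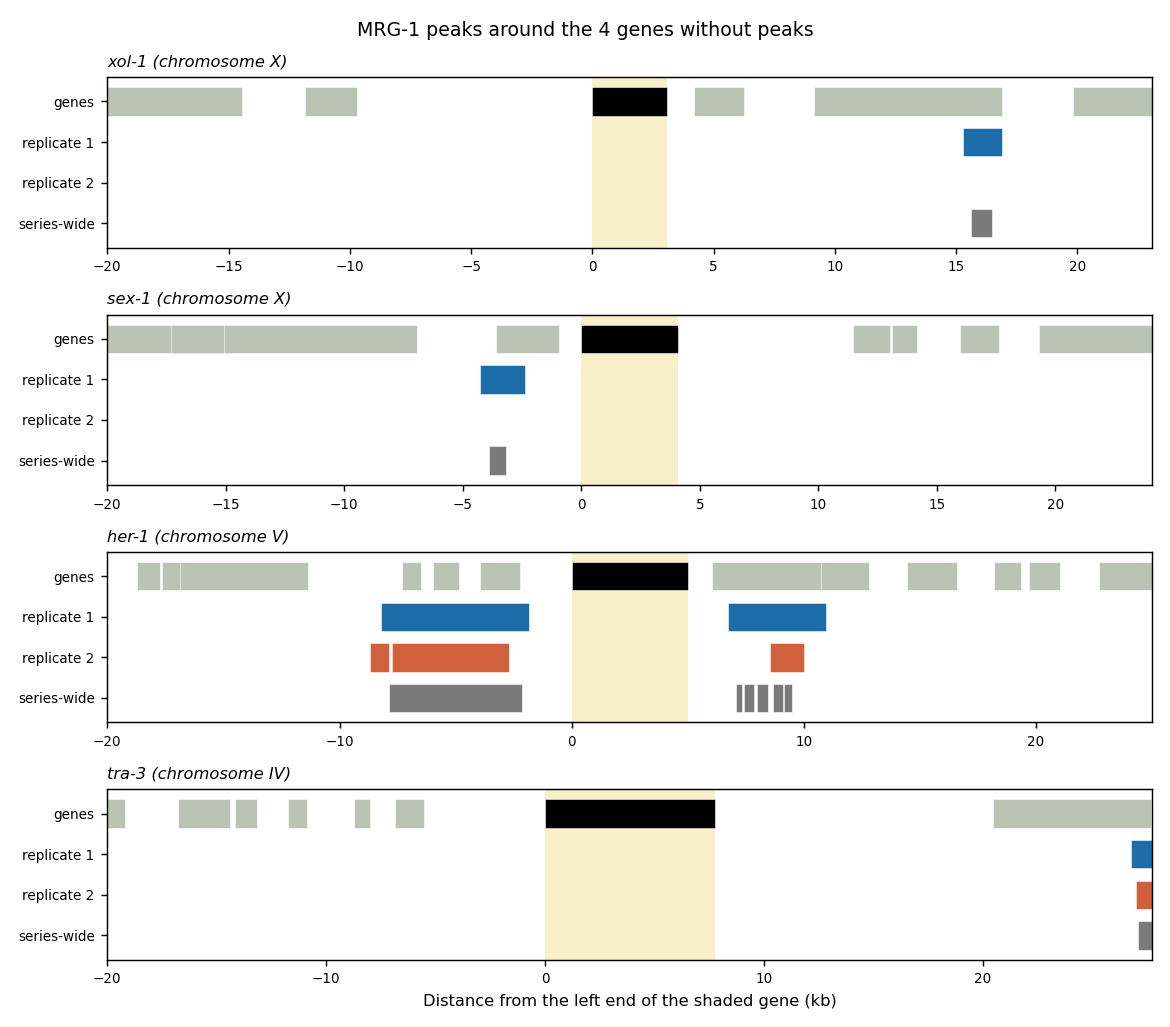
Maps of the 4 genes without MRG-1 peaks, with 20 kb on each side, drawn as for the genes with peaks: the x axis is the distance in kb from the left end of the shaded gene, and rows are genes and the peaks of the 3 lists. Only her-1 has peaks in both replicates on each side within 4 kb, and the peaks near xol-1 and sex-1 appear in replicate 1 and the series-wide list but not in replicate 2.

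Around the 6 genes with peaks, 31 of the 60 nearest neighbours were overlapped in both replicates, and 24 had no peak in any list. Around the 4 genes without peaks, the counts were 6 and 31 of 40, and 20 of these 40 were on X. Over all protein-coding genes, 24.4% were overlapped in both replicates and 64.5% had no peak. Neighbouring genes share peaks, so these are not separate observations. Some neighbours lay under the same peak that put their gene in its group, as drp-1 did beside fem-1 and ceh-38 beside tra-2. The counts thus follow in part from the grouping.

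The other genes of the pathway were counted by role, and no difference between roles was tested. Of 36 further genes listed, 35 were matched in the gene table (mog-6 was not), and 20 of the 35 were overlapped in both replicates, beside the 24.4% of all protein-coding genes. Peaks lay over at least 50% of the span in both replicates for 15 of them, beside 17.0%, and over the whole span in both for 12, beside 11.0%. The median coverage of the 35 genes was 90.2% in replicate 1 and 34.4% in replicate 2, while the median of all protein-coding genes was 0 in both. Their median length was 4156 bp, against 2006 bp for all protein-coding genes. Length can bear on the count of genes sharing at least 1 bp with a peak, but its effect was not tested. All of the 20 were among the 29 autosomal genes, beside 28.1% of all autosomal protein-coding genes overlapped in both replicates. None of the 6 on X was overlapped in replicate 2, where 1.25% of all X genes were. Peaks of replicate 1 lay over 3 of these 6 genes, and series-wide peaks over 4. Of the 2730 protein-coding genes on X, 235 had a replicate 1 peak and 244 a series-wide peak.

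Of the 13 genes of the germline choice between sperm and oocyte, 11 were overlapped in both replicates, beside 24.4% of all protein-coding genes. In each replicate peaks covered the whole of gld-1, for the RNA-binding protein that acts with FOG-2, and of nos-3, of the Nanos family. The same held for the PUF-family genes fbf-1, fbf-2 and puf-8, and for gls-1, daz-1 and atx-2, which encode other regulators of germline RNA. Among all protein-coding genes, 11.0% had their whole span under peaks in both replicates. The fbf genes are close in sequence to each other, so their values may not be independent. Coverage of gld-3 was 92.5% in replicate 1 and 77.2% in replicate 2. The gene fog-1, which encodes an RNA-binding protein of the CPEB family needed for sperm fate, had 71.1% of its span under peaks in replicate 1 and 9.65% in replicate 2. Its partner in sperm fate, fog-3, had no peak in any list. Replicates disagreed at larp-1, which had no peak in replicate 1 and was covered to 99.2% in replicate 2. The replicate 2 peaks there ran from 5007406 to 5014345 and from 5014413 to 5029453 on III, at score percentiles 87.8 and 79.4, and the series-wide list covered the gene to 97.4%.

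The mog genes are needed for the switch from sperm to oocytes, and several of them code for splicing factors. All 5 that were matched were overlapped in both replicates, beside 24.4% of all protein-coding genes, and mog-6 was not matched. Of these 5 genes, 2, mog-1 and mog-3, were covered whole in each replicate, beside 11.0% of all protein-coding genes. In replicates 1 and 2, mog-2 was covered to 100% and 87.9%, mog-4 to 55.6% and 27.8%, and mog-5 to 63.1% and 32.4%. Among 6 cofactors and regulators of the TRA and FEM proteins, 4 were overlapped in both, again beside 24.4% of all protein-coding genes. They included cul-2, at 100% and 63.1%, and the F-box gene sel-10 and the proteasome gene rpn-10, both at 100% in each replicate. For laf-1, which encodes a DEAD-box RNA helicase, the values were 90.2% and 44.0%. The RNA-binding protein gene sup-26 had no peak in any list. The X-linked tra-4, for a zinc finger protein that promotes female fate, was covered to 94.0% in replicate 1 and had no peak in replicate 2.

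Of the 4 signal elements 3 had no peak in any list, and of the 3 sdc genes 1 had none. Together these were 4 of 7 genes, beside 64.5% of all protein-coding genes and 90.2% of those on X, where 4 of the 7 lie. Of the signal elements, fox-1 on X and the autosomal sea-1 and sea-2 had no peak in any list. The remaining one, ceh-39 on X, was covered to 100% in replicate 1 and to 0 in replicate 2. None of the sdc genes, which act between xol-1 and her-1 and in dosage compensation, was overlapped in both replicates, and sdc-3, the autosomal one, had no peak in any list. At sdc-1 a replicate 1 peak at score percentile 0.361 covered 21.7% of the gene. All 4 targets of TRA-1, namely mab-3 and dmd-3 of the DM domain family, the cell-death gene egl-1 and the homeobox gene ceh-30, had no peak in any list. No list had peaks over 64.5% of all protein-coding genes, so a count of 4 of 4 is a description.

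**Figure D5:**
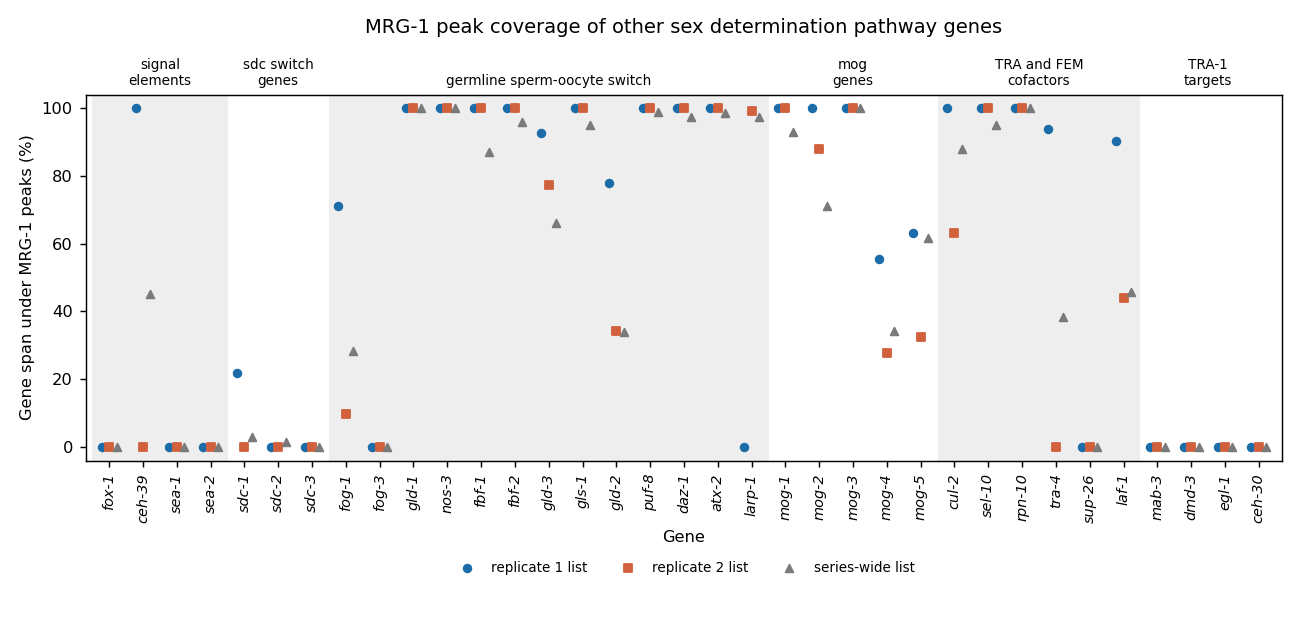
Percent of span under peaks (y axis) for the 35 other pathway genes (x axis), grouped by role, in replicate 1, replicate 2 and the series-wide list. In both replicates 8 of the 13 germline switch genes and 2 of the 5 mog genes stand at 100%, the TRA-1 targets are all at 0, and larp-1, ceh-39 and tra-4 have one replicate at 0 and the other above 90%. Among all protein-coding genes, 11.0% are covered whole in both replicates and 64.5% have no peak in any list.

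Among the 10 genes and the other pathway genes, those most like fem-2 in coverage over the 3 lists were cul-2, fem-3 and mog-2. Their Euclidean distances from fem-2 were 14.0, 15.4 and 22.1 percentage points. The 3 lists are not independent, and many genes with high coverage would be as near, so this likeness is a description of peak coverage alone.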

How the data were processed

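ChIP-seq libraries were described by their labels as 2 MRG-1 ChIP samples and 2 input samples. The submitters' processing notes name BWA and the build ce10. Peaks were called with MACS for the replicates and MACS v2 for the series-wide list, per the files' source column, on WormBase WS220, per the file headers. Not given in the sources used here are tool versions, peak thresholds, how duplicates and multiply mapping reads were treated, how the input was used, and whether replicates were pooled. Each peak carries a deposited score whose definition the files do not state. It was used only as a percentile, the percent of peaks in that list with a score at or below it. In replicate lists 554 and 272 peaks share the score 3100. Calls depend on sequencing depth, which is unknown, and widths differ between callers (median 4277, 2163 and 428 bp). The labels do not say that the replicates came from separate cultures, so each SD covers these samples only.

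Gene spans came from the RefSeq gene table of WBcel235, which has no strand, so left and right mean lower and higher coordinates. None of its coordinates are given, and spans were set against WS220 peaks unconverted, with an assumed offset of up to 200 bp tried as an alternative. Coverage is the percent of a span under at least 1 peak. Neighbours were the 5 nearest protein-coding genes on each side, and the 2 nearest, or those under the same peak, could be named. For other pathway genes, the plan was to name at most 10 with at least 50% coverage in both replicates. Up to 5 without peaks were to be named, in list order. More were named than planned, and all names beyond these rules were chosen after values were seen. Chromosome middles were the central 50% from base 1 to the last peak end, and arms the outer 25% on each side. No sequence is shown. The genes, lists and rules were chosen with earlier results of these data known. Coverage code was tested on simulated data. Python 3.11.15, numpy 2.4.6, pandas 2.3.3 and matplotlib 3.10.9 were used.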

Additional observations from a re-analysis of the deposited data

How the results depend on the processing

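The same 6 genes were overlapped without replicate 1, without replicate 2, in the series-wide list, with gene spans moved 200 bp either way, and with 1000 bp added on both sides, the last chosen after seeing the data. With at least 50% of the span required, or with the top 50% of each list by score, 5 remained and tra-1 was lost. Among all protein-coding genes, 17.0% met the 50% requirement in both replicates, and 28.5% were overlapped with 1000 bp added on both sides. With the top 50% by score, 12 other pathway genes were overlapped in both replicates in place of 20. The summed spans of the 10 genes were covered to 24.4% in place of 31.2%. Of all protein-coding genes, 17.2% were then overlapped in both replicates in place of 24.4%. Fewer peaks were left in each list. Leaving out a replicate gave 26.6% to 35.8% for the summed spans, 21 to 23 for the other pathway genes and 28.1% to 30.2% for all protein-coding genes. Coverage of tra-1 rests on the replicate used, at 8.71% without replicate 1 and 22.0% without replicate 2. With the top 50% by score tra-1 fell to 3.01%, fem-1 from 84.0% to 66.5% and fog-2 from 99.7% to 87.6%. There fog-2 stood below fem-3 at 94.4% and fem-2 at 88.4%, so the order of these genes depends on the score filter. With 1000 bp added on both sides, fem-1 was at 74.0%, fem-2 at 73.7% and fem-3 at 81.2%. The planned addition of 1000 bp upstream alone was not run, because the gene table has no strand. No paired analysis was possible because only ChIP samples gave values, and a pair would need the input of that number. Depth is unknown, so a gene without a peak is one where no signal passed the authors' threshold.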

Other observations

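The FEM proteins act with a CUL-2 ubiquitin ligase, and the genes of its other core subunits were looked up after the values of cul-2 and of the her-1 neighbourhood had been seen. Peaks covered the whole span of elb-1 and elc-1, for the elongin subunits, in both replicates, and elc-1 was covered to 78.0% in the series-wide list. The RING-finger gene rbx-1, which lies 3 genes to the left of her-1, was covered to 100% in every list. Across all protein-coding genes, 11.0% had their whole span under peaks in both replicates.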
